A study of Mus musculus with 59 samples.

Results

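The genes described here are the 84 cytosolic ribosomal protein genes among the 24391 genes listed by symbol in the 59 RNA-seq libraries. They were chosen by their symbols alone, as genes whose name is *Rpl* or *Rps* with a number and at most a short suffix, plus *Rplp0*, *Rplp1*, *Rplp2* and *Rpsa*, with the *Rps6k* kinase genes left out. By symbol, 51 were counted with the large 60S subunit and 33 with the small 40S subunit. This includes paralogues and *Rps4l*, which RefSeq lists as a transcribed pseudogene. No expression value entered the choice. Values are TPM, a level per transcript length that adds up to 1000000 in every library, so that each value is a share of the whole and not an amount of RNA per cell. In bulk libraries of this kind, fewer cells of a type and less RNA per cell cannot be told apart.

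The libraries come from 6 mouse embryonic stem cell (ESC) lines, in which all groups, controls included, carry a Cre recombinase fused to a modified estrogen receptor (ERT2-Cre) driven from the *Rosa26* locus. Each line was sequenced as ESCs, kept with LIF and 3 kinase inhibitors over feeder cells, which are mouse embryonic fibroblasts (MEFs), and as embryoid bodies (EBs), grown for 2 days in suspension without LIF, inhibitors or feeders. Controls had no 4-hydroxytamoxifen (4-OHT) and mutants had 4-OHT, which activates the Cre. In the *Pcgf1* line, *Pcgf1* f/f controls gave 4 ESC and 5 EB libraries and *Pcgf1* delta/delta mutants gave 5 of each. In the *Ring1A*-pm; *Ring1B*-cpm line, called the point mutant line below, all cells are *Ring1A* pm/pm and 4-OHT makes them *Ring1B* pm/pm, with 2 libraries in each of the 4 groups. The other 4 lines, with 8 libraries each, are *Ring1A*-/-; *Ring1B* f/f (*Ring1A/B*), *Pcgf2* f/f; *Pcgf4* f/f (*Pcgf2/4*), *Pcgf3* f/f; *Pcgf5* f/f (*Pcgf3/5*) and *Pcgf6* f/f. In 21 of these 32 libraries the table was named for another condition than the sample label gives. These 4 lines were therefore used for levels and not for tests between groups. Where name and label gave different stages, the ESC marker *Klf4* and the EB marker *Fgf5* went with the name, as given below. Nothing in the labels says whether replicates of a line were separate cultures, so the spread between them may be technical.

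Ribosomal proteins and ribosomal RNA together form the ribosome, and most of the proteins are present in equal number per particle. Their mRNAs are among the most abundant in growing cells, and many of them start with a C followed by a run of pyrimidines, the 5′ terminal oligopyrimidine (TOP) motif, through which mTOR signalling sets how much of the mRNA is translated. A few genes have paralogues with restricted expression, and the mouse genome holds many processed pseudogenes of this family, which resemble the mRNAs closely. ESCs divide rapidly, which calls for a steady supply of new ribosomes.

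The start of the transcript, where a TOP motif would lie, is shown for 6 abundant genes. They were chosen because a run of at least 8 C or T bases lies over it, so its presence is not a result. Such a run need not be a TOP motif, which begins with a C at the first base of the mRNA. In *Rps9* and *Rps24* the annotated first base is a T. In the 30 bases around the RefSeq start in GRCm38.p6, 15 of them upstream, capitals mark the run of C and T bases that lies over the start.
*Rplp2*, chr7:141447636-141447665, plus strand: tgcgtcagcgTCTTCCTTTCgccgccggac
*Rps18*, chr17:33955651-33955680, minus strand: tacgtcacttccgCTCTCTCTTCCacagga
*Rps9*, chr7:3704026-3704055, plus strand: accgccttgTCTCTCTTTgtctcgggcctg
*Rpl28*, chr7:4792950-4792979, plus strand: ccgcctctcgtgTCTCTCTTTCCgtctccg
*Rpl35*, chr2:39005117-39005146, minus strand: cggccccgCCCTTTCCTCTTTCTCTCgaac
*Rps24*, chr14:24490663-24490692, plus strand: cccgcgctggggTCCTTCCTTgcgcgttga
The run is 9 bases long in *Rps9* and *Rps24*, 10 in *Rplp2*, 11 in *Rps18* and *Rpl28* and 18 in *Rpl35*.

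The same window is shown for 2 pairs of paralogues, which come back below because one member of the pair was far lower than its relative or was close to it.
*Rpl22*, chr4:152325711-152325740, plus strand: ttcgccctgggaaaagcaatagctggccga
*Rpl22l1*, chr3:28805493-28805522, plus strand: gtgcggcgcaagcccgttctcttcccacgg
*Rps27*, chr3:90213634-90213663, minus strand: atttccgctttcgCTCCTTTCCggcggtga
*Rps27l*, chr9:66946071-66946100, plus strand: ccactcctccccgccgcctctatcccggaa
Only *Rps27* of these 4 had a run over the start, 9 bases long. RefSeq promoter windows, 250 bases before to 50 after a start, were found for 63 of the 84 genes. A run of at least 8 C or T bases over the annotated start, searched on the strand of the gene, was present in 17 of their 75 windows (22.7%) and in 1268 of 32851 windows of all genes (3.86%). The median level was 2159 TPM over the 17 members with the run and 2239 TPM over the 46 without it. An annotated start need not be the start used in these cells, and a window without the run says only that these letters do not lie over that start.

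Some libraries stood apart in these genes, independently of their group. In the *Pcgf1* line the 8 libraries of replicates 2 and 3, whose tables share one series of library identifiers, gave 7.94 to 9.54% of their TPM to ribosomal protein genes, and the 11 libraries of replicates 1, 4 and 5 gave 17.3 to 20.2%. Of the 83 members that averaged 1 TPM or more here, 79 were lower in replicates 2 and 3, by a median of 1.10 on the log2 scale. The difference went with transcript length in all genes: among transcripts under 1000 bases, 57 ribosomal protein genes had a median log2 difference of -1.21 and 760 other genes one of -0.71, while other genes over 4000 bases had a median of 0.71. Ribosomal protein genes were also lower than other genes of their length between 1000 and 2000 bases, at -0.74 for 18 genes against -0.13 for 2747. What made these libraries differ was not tested. Since every *Pcgf1* group holds replicates 2 and 3, the comparisons below are given with the replicate number as a block wherever this moves a call.

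The labelled stages carried their markers in the *Pcgf1* line and in the controls of the point mutant line, and lay closer together in the mutants of the latter. In the *Pcgf1* line the summed level of 10 ESC markers such as *Klf4* and *Nanog* lay between 3219 and 4769 TPM in control ESCs, against 309 to 679 TPM in control EBs. That of 10 EB markers such as *Fgf5* and *Otx2* lay between 55.1 and 113 TPM in the former and between 1282 and 3362 TPM in the latter. *Pcgf1* itself had a log2 difference between mutants and controls of -3.23 ± 0.38 (SE) in ESCs and of -2.84 ± 0.36 in EBs (limma, adjusted p = 0.00066 and 0.00064). Of 15 fibroblast markers, such as the collagen gene *Col1a1*, none was at 0 in all libraries of the control groups, and their sum lay between 274 and 369 TPM in control ESCs, against 38.6 to 80.1 TPM in control EBs.

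Ribosomal protein mRNAs were abundant in every library. They made up a median of 20.6% of all TPM over the 59 libraries, with a range of 7.94 to 34.4%, and between 2 and 17 of the 20 highest genes of a library were ribosomal protein genes. The 77 mitochondrial ribosomal protein genes, by comparison, made up 0.376 to 1.09%. The 60S genes gave a mean of 10.7% of all TPM and the 40S genes 8.53%. The median of the members' mean levels was 2258 TPM, and that of all genes 2.25 TPM. Of the 84 genes, 66 had a mean above 1000 TPM, 11 lay between 100 and 1000 TPM and 7 lay below 100 TPM. Their transcripts are short, with a median length of 774 bases over 81 matched genes against 2386 bases over 19181 genes, a property that the choice by symbol did not use.

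**Figure D1:**
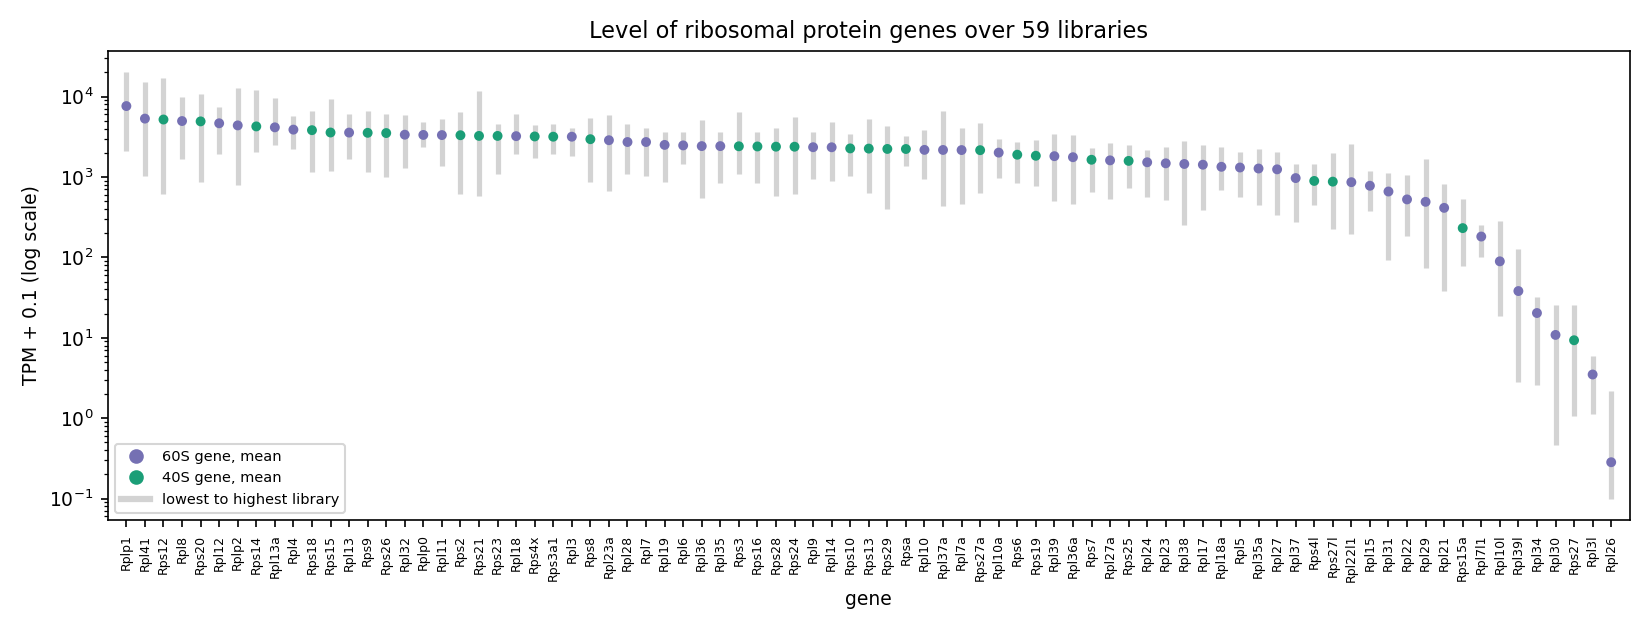
Level of 81 of the 84 ribosomal protein genes over 59 libraries, as TPM + 0.1 on a log axis, ordered by mean: points are means, coloured by subunit, and lines run from the lowest to the highest library. Most genes lie above 1000 TPM, and the 7 lowest, from *Rpl10l* at 89.1 TPM down to *Rpl26* at 0.183 TPM, stand apart from them.

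Highest of all was *Rplp1*, an acidic protein of the stalk with which the 60S subunit recruits elongation factors, at a mean of 7611 TPM and a range of 2118 to 20144 TPM. *Rpl41*, which encodes one of the smallest known proteins, had a mean of 5314 TPM (1039 to 15184), and *Rps12*, of the 40S subunit, one of 5177 TPM (612 to 16877). *Rpl8* and *Rps20* followed with means of 4956 and 4908 TPM. The ranges of these 5 genes overlap, although *Rpl8* and *Rps20* reached 9963 and 10656 TPM at most. By line means *Rplp1* was the highest of the 5 except in the point mutant line. There it had 5755 TPM, beside 6041 TPM for *Rpl41* and 6143 TPM for *Rps20*. Their order is a description of the means and no more.

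At the other end, 4 genes that encode core proteins of the ribosome were listed at very low levels. *Rpl26* had a mean of 0.183 TPM, reached 2.09 TPM at most and was listed at 0 in 45 of 59 libraries. *Rps27* had a mean of 9.21 TPM (0.953 to 25.5), *Rpl30* one of 10.7 TPM (0.357 to 25.1) and *Rpl34* one of 20.2 TPM (2.48 to 32.3). In the *Pcgf1* line *Rpl34* had 5.84, 24.0, 14.8 and 20.5 TPM in control ESCs and 4.60, 24.4, 31.3, 17.96 and 24.3 TPM in control EBs, so that replicate 1 was the lowest in both stages. Each of their means lay far below the median member at 2258 TPM. Their coding sequences have exact copies elsewhere in the mm9 genome: of all 50-base windows of the coding sequence, 87.4% were found again outside the gene for *Rpl26*, 100% for *Rps27*, 83.3% for *Rpl30* and 71.5% for *Rpl34*. Such copies are common in the family and did not mark out these 4 genes, since the median over 83 matched members was 89.6%, 28 members had every window copied and 3, among them *Rpl39l* and *Rpl3l*, had none. Whether the low levels come from how reads with several positions were counted was not tested, and the sources used here do not say how such reads were treated.

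Pairs of paralogues split in both directions. *Rpl3*, which sits by the peptidyl transferase centre, had a mean of 3165 TPM, and *Rpl3l*, known from heart and skeletal muscle, one of 3.39 TPM. *Rpl10* had a mean of 2171 TPM and its testis-associated retrogene *Rpl10l* one of 89.1 TPM. *Rpl39*, a small protein of the exit tunnel, had 1812 TPM, and *Rpl39l* had 38.0 TPM, with a range of 2.72 to 125 TPM. *Rpl7* and *Rpl7l1*, whose product is known in ribosome assembly, had means of 2718 and 181 TPM. Closer together were *Rps4x*, on chromosome X, at 3188 TPM and *Rps4l*, which RefSeq lists as a transcribed pseudogene and mm9 as *Rps4y2* (mm9 chr6:148303178-148304120), at 892 TPM. *Rpl22* and *Rpl22l1* had means of 525 and 860 TPM, so that the paralogue was the higher of the pair on average. *Rps27l*, a target of p53, had a mean of 874 TPM beside the 9.21 TPM of *Rps27*.

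The first comparison asked whether the share of the transcriptome given to ribosomal proteins differed between ESCs and EBs of the *Pcgf1* line. In control ESCs it was 18.7, 9.42, 8.30 and 17.3% in replicates 1 to 4, and in control EBs 18.7, 8.69, 9.54, 18.2 and 18.9% in replicates 1 to 5. The means were 13.4 ± 5.32% (SD, n = 4) and 14.8 ± 5.20% (SD, n = 5), and the groups overlap. The spread within a group is that between replicates 2 and 3 and the rest. Within the 4 same-numbered pairs the EB value was higher in 2 and the mean difference was 0.33 ± 0.90 percentage points (SD), less than its spread.

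In mutant ESCs the share was 18.1, 8.25, 7.94, 17.4 and 17.4%, and in mutant EBs 20.2, 8.59, 9.45, 18.03 and 18.1%. The EB value was the higher in 5 of 5 same-numbered pairs, by 0.34 to 2.10 percentage points, with a mean of 1.07 ± 0.71 (SD). By replicate set, this difference was 1.17 points in replicates 1, 4 and 5 and 0.93 in replicates 2 and 3. Mutants and controls had overlapping shares in both stages. The mean difference between mutants and controls was -0.52 ± 0.53 points (SD) over 4 pairs of ESCs, with the mutant higher in 1, and 0.09 ± 0.87 over 5 pairs of EBs, also with the mutant higher in 1.

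**Figure D2:**
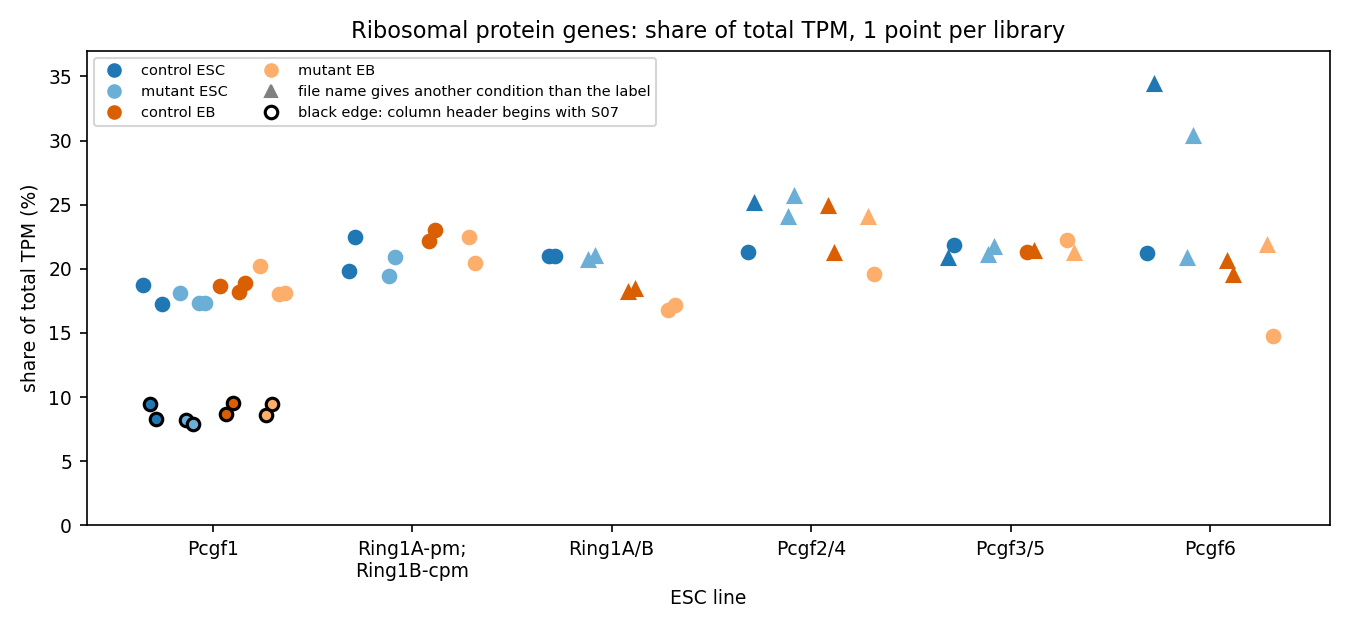
Share of all TPM in the 84 ribosomal protein genes, in percent, for each of the 59 libraries by line and labelled group: 1 point is 1 library. Triangles are libraries whose table is named for another condition than the label, and black edges mark replicates 2 and 3 of the *Pcgf1* line. *Pcgf1* replicates 2 and 3 lie at 7.94 to 9.54% in all 4 groups. In the *Pcgf6* line 2 libraries, labelled as ESCs but with tables named as control EBs, lie above 30%.

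In the point mutant line the share was 19.8 and 22.4% in control ESCs, 19.5 and 20.9% in mutant ESCs, 22.1 and 23.01% in control EBs and 22.5 and 20.4% in mutant EBs. EBs minus ESCs gave a difference of 1.45 percentage points in controls and 1.24 in mutants. Mutants minus controls gave -0.92 points in ESCs and -1.13 in EBs. With 2 libraries a group, each difference is of the size of the differences within groups, and all ranges overlap.

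In the other 4 lines the share is given by label. It was 16.8 to 21.03% in the *Ring1A/B* line, 19.6 to 25.6% in the *Pcgf2/4* line, 20.8 to 22.3% in the *Pcgf3/5* line and 14.7 to 34.4% in the *Pcgf6* line. The *Pcgf6* range was set by the libraries labelled control and mutant ESC replicate 2, at 34.4 and 30.3%, whose tables are named as control EBs, while the other 6 lay between 14.7 and 21.8%. In these 2 libraries the ribosomal protein genes were higher than in the other 6 by a median of 0.61 on the log2 scale, and other genes over 4000 bases lower, with a median of -0.95. *Klf4* was at 3.25 and 4.11 TPM in them and *Fgf5* at 25.7 and 35.2 TPM, levels of EBs and not of ESCs. In the *Ring1A/B* line *Klf4* was at 9.90 and 7.38 TPM in libraries labelled mutant ESC. It was at 665 and 709 TPM in those labelled control EB. The labelled stage of libraries named for another stage is therefore in doubt.

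For single genes, log2(TPM + 0.1) was fitted with limma across all genes tested in a line, 20594 in the *Pcgf1* line, and genes with a Benjamini-Hochberg adjusted p under 0.05 were called. Between control EBs and control ESCs, 2 ribosomal protein genes were called higher and 0 lower out of 84, while 24.9% of all genes tested were called (11.5% higher and 13.4% lower). The median log2 difference of the members was 0.15 and that of all genes -0.00, and 72 of the 84 members had a positive value. This direction rests on single libraries: without control ESC replicate 3 the median was -0.08, with 26 positive and 58 negative values, and without control ESC replicate 2 it was -0.00, with 40 and 44. Once the replicate number was a block in the fit, 12 were called higher and 2 lower, while 43.9% of all genes were called (20.7% higher and 23.3% lower). The median of the members then was 0.04, with 50 positive and 34 negative values, and it had the other sign, -0.06, when the values were also quantile normalized, where 6 members were called higher and 10 lower. Without replicate 3 in the blocked fit the median was -0.02, with 35 positive and 49 negative values. By either fit the share of members called lay below that of all genes.

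Both genes called without the block were paralogues. *Rps4l*, a relative of *Rps4x*, had 470, 520, 468 and 704 TPM in control ESCs and 620, 855, 808, 931 and 981 TPM in control EBs, in order of replicate number. The EB value was higher in 4 of 4 pairs, and the groups overlap only through ESC replicate 4 and EB replicate 1. The log2 difference was 0.64 ± 0.18 (SE, limma, adjusted p = 0.012) without the block and 0.58 ± 0.08 (adjusted p = 4.3e-05) with it. *Rpl7l1* (mm9 chr17:46910856-46919605) had 181, 141, 139 and 167 TPM in control ESCs and 223, 224, 237, 174 and 171 TPM in control EBs. Here the EBs of replicates 1 to 3 were above every ESC library and those of replicates 4 and 5 were within the ESC range. The log2 difference was 0.39 ± 0.13 (adjusted p = 0.031) without the block and 0.42 ± 0.10 (adjusted p = 0.0025) with it. It was 0.15 (adjusted p = 0.25) in replicates 1, 4 and 5 alone and 0.72 in replicates 2 and 3 alone, so that the difference of *Rpl7l1* rests on replicates 2 and 3. For *Rps4l* the same fits gave 0.44 (adjusted p = 0.022) and 0.75.

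**Figure D3:**
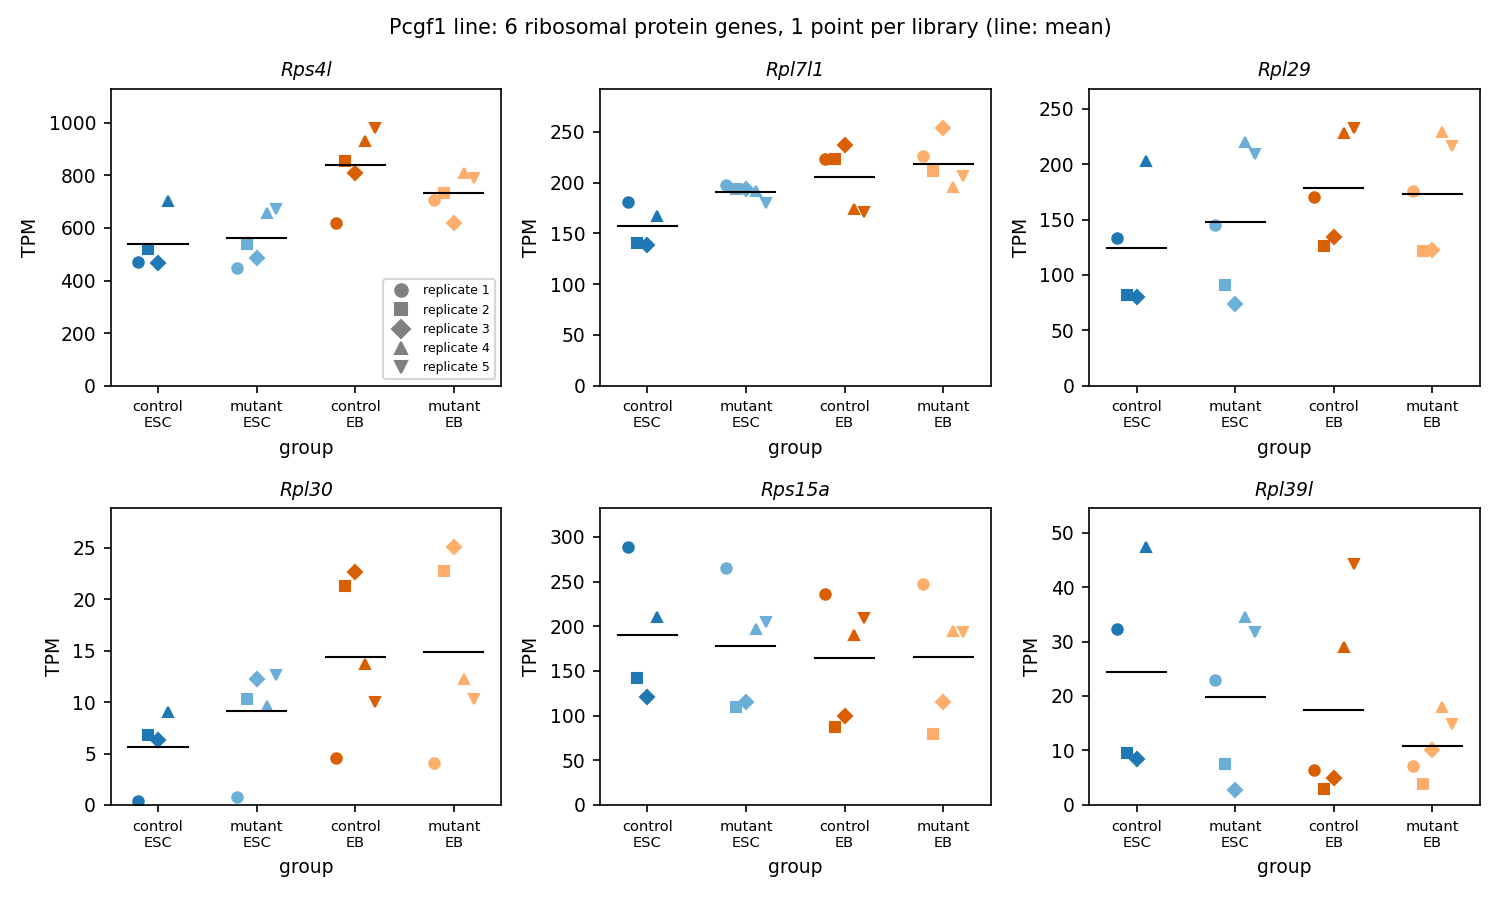
Levels of 6 ribosomal protein genes in the 19 libraries of the *Pcgf1* line, in TPM from 0: *Rps4l*, *Rpl7l1*, *Rpl29*, *Rpl30*, *Rps15a* and *Rpl39l*. Each point is 1 library, its shape gives the replicate number and the horizontal line is the group mean. *Rps4l* is higher in EBs than in ESCs within every pair, in controls and in mutants, and *Rpl39l* is lower in EBs within every control pair.

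Among proteins of the 60S subunit, 8 others were called higher in control EBs with the block. *Rpl30* (mm9 chr15:34370260-34373395) had 0.357, 6.78, 6.35 and 9.07 TPM in control ESCs and 4.60, 21.3, 22.6, 13.7 and 9.97 TPM in control EBs. Replicate 1 was the lowest in both stages, and the EB value was higher in each of 4 pairs. The log2 difference was 1.74 ± 0.38 (SE, adjusted p = 0.0017), at a level where *Rpl30* is 1 of the 5 lowest members above 1 TPM, and its p was 0.091 in replicates 1, 4 and 5 alone. *Rpl29* (mm9 chr9:106331785-106333899) had 134, 81.9, 80.0 and 203 TPM in control ESCs and 170, 127, 134, 228 and 233 TPM in control EBs, a log2 difference of 0.46 ± 0.11 (adjusted p = 0.0024). It was 0.27 (adjusted p = 0.037) in replicates 1, 4 and 5 alone.

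The stalk protein *Rplp0*, onto which *Rplp1* and *Rplp2* assemble, had 3541, 2326, 2427 and 3404 TPM in control ESCs and 4417, 3006, 3332, 3362 and 3564 TPM in control EBs. It was higher in 3 of 4 pairs, with a log2 difference of 0.27 ± 0.09 (adjusted p = 0.026). Its partners gave no such difference: *Rplp1* had 7556, 2616, 2391 and 6828 TPM in control ESCs against 7718, 2334, 2712, 6853 and 7065 TPM in control EBs, a log2 difference of 0.01 ± 0.09 with the block. For *Rplp2* the value was -0.06 ± 0.10. The remaining members called higher in the 60S subunit were *Rpl6* (0.25 on the log2 scale), *Rpl35* (0.23), *Rpl13a* (0.22), *Rpl7a* (0.19) and *Rpl27* (0.16), each higher in 4 of 4 pairs. *Rpl35* lies by the exit of the peptide tunnel, and *Rpl13a* is also known for translational control outside the ribosome. *Rpl7a* has exact copies in 133 regions of the genome.

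In the 40S subunit, *Rps9*, which binds early to the ribosomal RNA during assembly, had 2742, 1347, 1156 and 2635 TPM in control ESCs and 3577, 1598, 1605, 3014 and 3159 TPM in control EBs. The log2 difference was 0.32 ± 0.08 (adjusted p = 0.0029) with the block, and the EB was the higher in 4 of 4 pairs. *Rps13* was called at the edge of the threshold, with 0.22 on the log2 scale (adjusted p = 0.0498). *Rpsa*, the 40S protein also known as the laminin receptor, had 2508, 2032, 2047 and 2287 TPM in control ESCs, against 2377, 1910, 2017, 2308 and 2353 TPM in control EBs, a log2 difference of -0.04 ± 0.07.

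The members called lower were 1 gene of each subunit. *Rps15a* (mm9 chr7:125247892-125259700) had 289, 142, 120 and 211 TPM in control ESCs and 236, 87.4, 99.4, 190 and 209 TPM in control EBs, lower in all 4 pairs by a log2 difference of -0.33 ± 0.10 (SE, adjusted p = 0.012). *Rpl39l* (mm9 chr16:10170319-10175004) had 32.2, 9.49, 8.46 and 47.4 TPM in control ESCs and 6.44, 2.88, 4.93, 28.97 and 44.2 TPM in control EBs, lower in all 4 pairs by -1.17 ± 0.44 (adjusted p = 0.044). Its parent gene *Rpl39* had a log2 difference of -0.26 ± 0.11 (adjusted p = 0.073). The *Rpl39l* libraries differ more by replicate number than by stage. Just short of the threshold with the block were *Rps27l*, with a log2 difference of 0.33 ± 0.13 (adjusted p = 0.054), and *Rpl22*, with -0.21 ± 0.08 (adjusted p = 0.054).

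When each replicate number in turn was left out of the blocked fit, between 5 and 10 members were called higher and between 1 and 3 lower. *Rpl29*, *Rpl30*, *Rpl7l1*, *Rps15a*, *Rps4l* and *Rps9* were called in all 5 of these fits, and the 14 genes kept their sign in each. *Rpl27*, *Rpl35* and *Rps13* were called in none of them. In replicates 1, 4 and 5 alone, 2 members were called higher and 0 lower, and in replicates 2 and 3 alone 6 and 2. In the fit without the block, the call of *Rps4l* held without each single library (adjusted p = 0.0043 to 0.042), and that of *Rpl7l1* was lost without control EB replicate 1, 2 or 3 or control ESC replicate 2 or 3 (adjusted p = 0.069 to 0.10).

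Between mutant EBs and mutant ESCs, 0 of 84 members were called by limma without the block while 18.3% of all genes were called. At an unadjusted p under 0.05 there was 1 member, and 29.03% of all genes. With the block, 13 members were called, all of them higher, against 36.8% of all genes (16.8% higher). The median log2 difference of the members was 0.12 and that of all genes 0.00, and 73 members were positive and 11 negative, a split that was 51 and 33 after quantile normalization. Without the block the direction rests on single libraries, with 23 positive members without mutant ESC replicate 3, 25 without mutant ESC replicate 2 and 37 without mutant EB replicate 1. With the block, 68 to 75 members were positive when each replicate number was left out in turn. Each of the 13 genes was higher in EBs in 5 of 5 pairs. The pairs follow the sample titles, since the library titled mutant EB replicate 4 carries the number 5 in another label, and with replicates 4 and 5 averaged 13 members were again called higher.

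Of these 13, *Rps4l* had the largest difference, 0.40 ± 0.08 (SE, adjusted p = 0.00080), with 446, 541, 485, 659 and 670 TPM in mutant ESCs and 707, 731, 619, 811 and 791 TPM in mutant EBs. *Rps12* had 2512, 744, 612, 2922 and 3046 TPM in mutant ESCs and 3174, 896, 1038, 3306 and 3387 TPM in mutant EBs, a log2 difference of 0.34 ± 0.09 (adjusted p = 0.0089). *Rpl41* had 3842, 1180, 1039, 3961 and 4059 TPM and 5319, 1507, 1523, 4366 and 4502 TPM, a difference of 0.33 ± 0.09 (adjusted p = 0.0099). The stages overlap in all of these genes. In *Rps12* and *Rpl41* replicates 2 and 3 lie low in both stages. In *Rps4l* the EB value of 619 TPM lies below the ESC values of 659 and 670 TPM.

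*Rpl13a* was the exception among the 13, with mutant ESCs at 2841, 2512, 2503, 2854 and 2935 TPM and mutant EBs at 3632, 3031, 2942, 3295 and 3229 TPM, 2 groups that do not overlap. Its log2 difference was 0.24 ± 0.07 (adjusted p = 0.012). *Rpl29* (0.31 on the log2 scale), *Rps13* (0.29), *Rpl35* (0.27), *Rps29* (0.27), *Rps9* (0.27), *Rpl6* (0.26), *Rps21* (0.23) and *Rps27a* (0.21), which is made as a fusion with ubiquitin, were also among them. Leaving out each replicate number in turn left 6 to 14 members called higher, and *Rpl35*, *Rpl41*, *Rps12*, *Rps13* and *Rps4l* were called in all 5 fits. In replicates 1, 4 and 5 alone, 1 member was called higher and 1 lower.

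**Figure D4:**
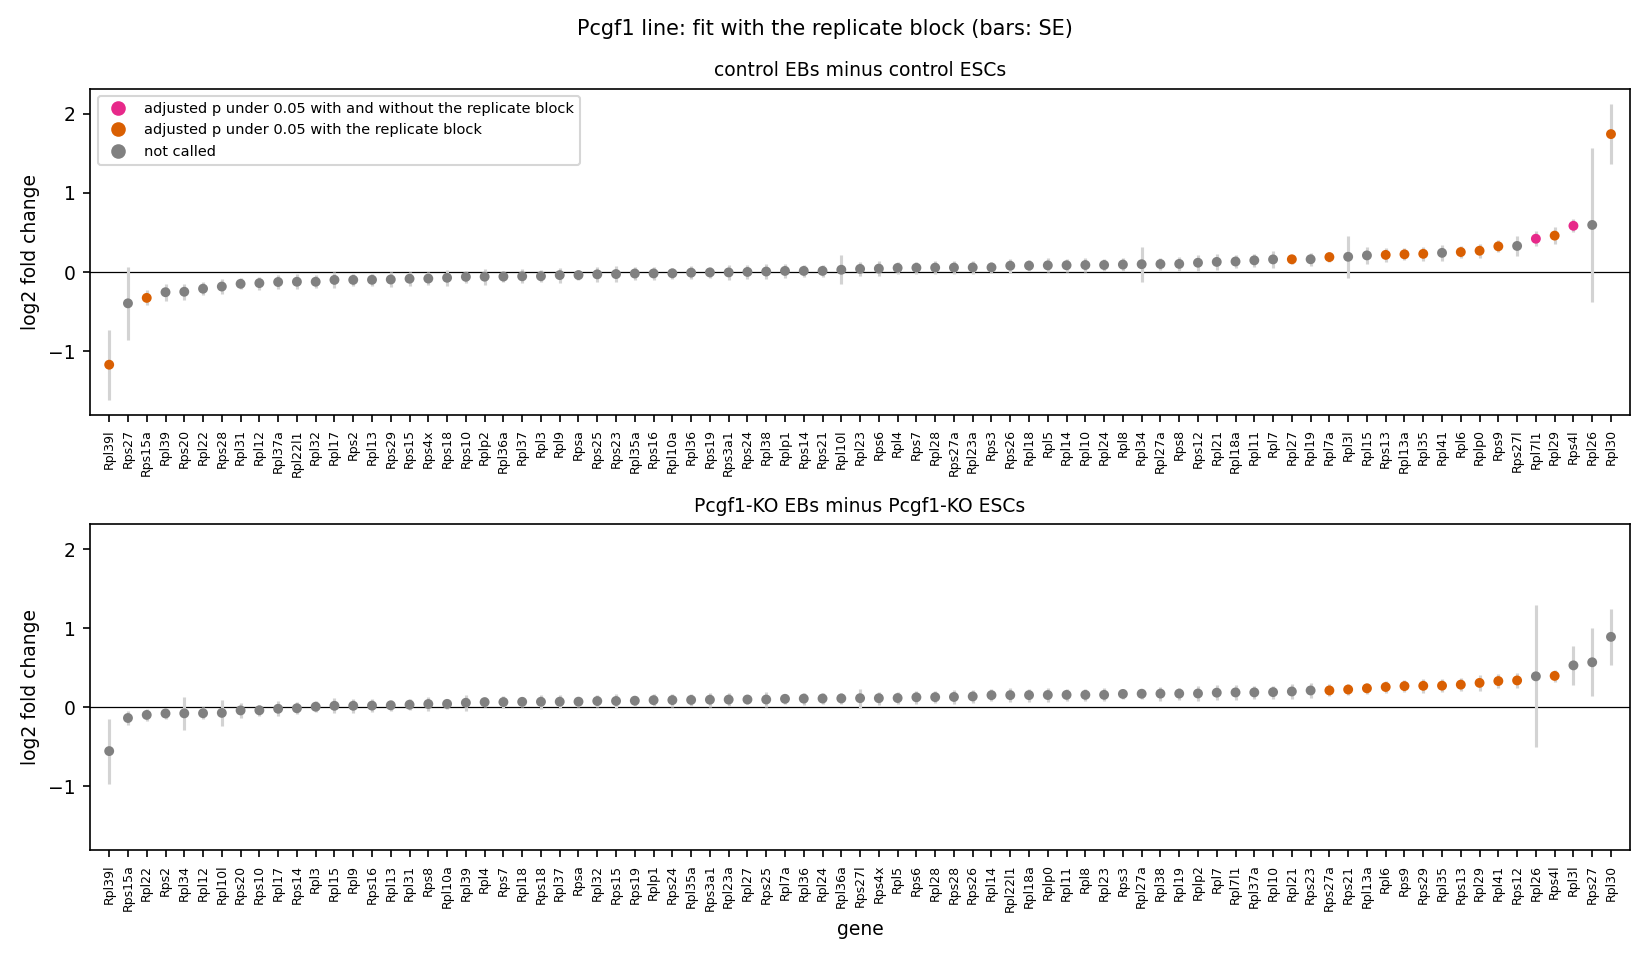
Log2 difference between EBs and ESCs of the *Pcgf1* line with the replicate number as a block, for 81 members in controls and in mutants: points are estimates and bars are standard errors, with genes called with the block in orange and those called with and without it in pink. Most estimates lie within 0.5 of 0, *Rpl30* lies at 1.74 and *Rpl39l* at -1.17 in controls, and called genes other than *Rps15a* and *Rpl39l* are above 0.

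Both comparisons called *Rpl13a*, *Rpl29*, *Rpl35*, *Rpl6*, *Rps13*, *Rps4l* and *Rps9*, which are 7 of the 14 genes called in controls and 7 of the 13 called in mutants. The difference between the control and the mutant change is the same quantity as the difference of the mutant effect between stages, and no member was called for it (limma without the block), while 0.00486% of all genes, 1 gene, were called. At an unadjusted p under 0.05 there were 0 of 84 members and 5.80% of all genes. With the block 0 members were called, while 1.62% of all genes were called. An unadjusted p under 0.05 was then found for 4 members, all positive, and for 15.7% of all genes. Of the 84 members, 67 were positive with the block and 29 without it.

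The EB libraries differed from the ESC libraries in other measures too. Of 15 fibroblast markers, 8 were called lower and 2 higher in control EBs, and in mutants their sum was 216 to 296 TPM in ESCs and 21.1 to 44.4 TPM in EBs. Of 12 genes taken as signs of handling, among them the immediate early genes *Fos* and *Egr1*, 9 were called lower with the block in control EBs and 0 higher. Their part in the differences of the ribosomal protein genes was not tested.

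Genes that build the ribosome gave a higher share of calls than the genes of its proteins. Of 40 ribosome biogenesis genes, 14 were called higher and 0 lower in control EBs without the block, and 30 and 0 with it, with a median of 0.43 on the log2 scale. *Ncl*, which encodes the nucleolar protein nucleolin, had a log2 difference of 0.71 ± 0.22 (SE, adjusted p = 0.024) without the block, and the transcription factor gene *Myc*, an activator of ribosome biogenesis, had 2.97 ± 0.48 (adjusted p = 0.00016). Of 77 mitochondrial ribosomal protein genes, 11 were called higher and 0 lower without the block and 37 and 0 with it, with a median of 0.24. Of 18 other genes with TOP mRNAs, 7 were called higher and 2 lower with the block, with a median of 0.12. Within this list *Npm1*, a nucleolar chaperone, had 0.43 ± 0.11 (adjusted p = 0.0042) and *Tpt1* 0.42 ± 0.11 (adjusted p = 0.0044), while the elongation factors *Eef1a1* and *Eef2* had -0.06 ± 0.10 and -0.08 ± 0.09. In mutants with the block, 26 of 40 biogenesis genes were called higher and 0 lower, 20 of 77 mitochondrial genes higher and 1 lower, and 7 of 18 TOP genes higher and 3 lower. *Fau*, which encodes a 40S protein fused to a ubiquitin-like protein and falls outside the symbol rule, had a blocked log2 difference of -0.05 ± 0.08 in controls. These lists were not tested against the cytosolic ribosomal protein genes.

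The comparison of *Pcgf1* mutants with controls gave no called member at either stage. In ESCs 0 of 84 were called by limma without the block, while 0.641% of all genes were called, and 0 of 84 with it, while 5.31% of all genes were called. At an unadjusted p under 0.05 there were 1 member and 8.63% of all genes without the block, and 9 members and 20.2% of all genes with it. The blocked median was -0.08 for the members and -0.04 for all genes, with 19 members positive and 65 negative. The smallest adjusted p with the block was 0.062, for *Rpl22l1*, with 967, 331, 299 and 714 TPM in control ESCs and 942, 198, 233, 648 and 701 TPM in mutant ESCs, lower in each of 4 pairs by a log2 difference of -0.32 ± 0.09. *Rpl7l1* came next, with a difference of 0.33 ± 0.10 (adjusted p = 0.067) and higher values in the mutant in 4 of 4 pairs.

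In EBs 0 of 84 were called by limma without the block, while 1.95% of all genes were called, and 0 of 84 with it, while 10.4% of all genes were called. At an unadjusted p under 0.05 there were 0 members and 11.99% of all genes without the block, and 2 members and 23.9% of all genes with it. The median was 0.00 for the members and -0.03 for all genes, with 45 positive and 39 negative values that ran from -0.34 to 0.26. *Rplp0*, for example, had 4417, 3006, 3332, 3362 and 3564 TPM in control EBs and 4686, 2952, 2661, 3481 and 3533 TPM in mutant EBs. Over the same EBs, ESC markers were higher in mutants for 6 of 10 genes with the block, and 0 of 40 ribosome biogenesis genes were called. In simulated libraries laid out like the control ESCs and EBs, 200 genes, drawn without regard to the members, were changed. A change of 0.5 on the log2 scale was called in 43.5% of them with the block and in 0% without it. Mutants against controls were not simulated, and members were called at smaller differences between control EBs and ESCs (*Rpl27* at 0.16). The simulation therefore sets no limit for the members here.

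The point mutant line asked whether loss of RING1 catalytic activity, without loss of the proteins, changed these genes. Here 83 members were tested among 20279 genes, and limma called 0 in any comparison. Of all genes, 4.73% were called between control EBs and ESCs, 0.133% between mutant EBs and ESCs, 2.54% between mutant and control ESCs, 4.53% between mutant and control EBs and 0.00986% for the difference of the mutant effect between stages. In simulated libraries laid out like the control ESCs and EBs of this line, 200 of the 20279 genes were changed. A change of 1 on the log2 scale was called in 0% of them, and in 32% with a replicate block. Between control EBs and ESCs 960 genes were called in the data, more than the 200 changed in the simulation. The same adjusted threshold therefore stood for different unadjusted p, and the simulation sets no limit for the members here. Their absence of calls does not show that they were unchanged. The other comparisons were not simulated, so what they could have called is unknown.

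At an unadjusted p under 0.05, the members did not exceed the share of all genes in any of these comparisons. Between EBs and ESCs there were 3 members in controls, beside 20.3% of all genes, and 4 in mutants, beside 9.73% of all genes. Between mutants and controls there was 1 member in ESCs, beside 16.7% of all genes, and 12 of 83 in EBs, beside 20.7% of all genes. For the difference of the mutant effect between stages there were 0 members, beside 5.31% of all genes.

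All 12 members with an unadjusted p under 0.05 in EBs were lower in mutants, and for none of them did the 2 groups overlap. In all, 31 of 83 members were lower in both mutant EB libraries than in both control EB libraries, as were 13.6% of all genes. *Rps7*, which can bind MDM2 outside the ribosome, had 1784 and 1816 TPM in control EBs and 1313 and 1439 TPM in mutant EBs, a log2 difference of -0.39 ± 0.10 (SE, adjusted p = 0.081). *Rpl29* had 504 and 560 TPM in control EBs and 324 and 430 TPM in mutant EBs, a difference of -0.51 ± 0.15 (adjusted p = 0.11). Also among the 12 were *Rpl31* (-0.53 on the log2 scale), *Rpl27* (-0.36), *Rps25* (-0.34), *Rpl17* (-0.33), *Rps29* (-0.30), *Rpl23* (-0.27), *Rpl9* (-0.26) and *Rpl24* (-0.24). The median of the 83 members was -0.08 in both stages, beside 0.12 in ESCs and 0.10 in EBs for all genes, and 65 and 62 members were negative. The negative members numbered 42 and 43 after quantile normalization, and 78 and 79 after median-of-ratios scaling, which set the median of all genes to 0 and that of the members to -0.23 and -0.21, so the direction for the family depends on the scaling. Without control ESC replicate 2, 37 members were negative in ESCs, and without mutant EB replicate 2, 46 in EBs. Fibroblast markers also moved with these groups, with a sum between 36.8 and 43.5 TPM in control EBs and between 98.2 and 100 TPM in mutant EBs, and their part in the values was not tested.

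Both paralogues called higher in control EBs of the *Pcgf1* line had the other sign in the point mutant line. *Rps4l* had 1446 and 1454 TPM in control ESCs and 1324 and 1089 TPM in control EBs, a log2 difference of -0.27 ± 0.13 (SE, adjusted p = 0.31), and *Rpl7l1* had 250 and 185 TPM against 170 and 155 TPM, a difference of -0.41 ± 0.15 (adjusted p = 0.20). Neither passed the threshold, and each group holds only 2 libraries. *Rpl22l1*, by contrast, had 507 and 690 TPM in control ESCs and 856 and 764 TPM in control EBs, a difference of 0.45 ± 0.18 (adjusted p = 0.23), and 0.52 ± 0.18 (adjusted p = 0.45) between mutant EBs and ESCs. The difference between the lines was not tested, since the lines come from separate series of libraries. Ribosome biogenesis genes had a median of -0.27 in control EBs against ESCs of this line, with 0 of 40 called, beside 0.40 without the block in the *Pcgf1* line.

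A set of 4 genes differed strongly between series of libraries. The tables of 19 libraries (*Ring1A/B* line and *Pcgf1* replicates 1, 4 and 5) carry library identifiers that begin with S, as do those of *Pcgf1* replicates 2 and 3, which were left out here, and those of 32 (the point mutant, *Pcgf2/4*, *Pcgf3/5* and *Pcgf6* lines) identifiers that begin with DK. *Rpl21* had a mean of 121 TPM in the first and 677 TPM in the second, *Rpl29* 159 and 783 TPM, *Rps2* 1439 and 4757 TPM and *Rpl7a* 1053 and 3221 TPM. Between the 2 series the ranges of these 4 genes do not overlap, and the log2 differences run from -2.48 to -1.61. Ranges without overlap were found for 6 of the 84 members and for 0.374% of all genes.

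The same 4 are the members with the most copies: the median window of their coding sequence has 20, 14, 15 and 16 exact copies elsewhere in mm9, in 89, 91, 84 and 133 regions, and no other member reaches a median of 10. The other 79 members had a median log2 difference of -0.09 and a range of -1.22 to 1.40. Over all 83 members the rank correlation between copies and difference was 0.08, a description over genes of the same libraries. *Rps12*, also without overlap, was lower in the first series, at 3202 against 7434 TPM. No line has libraries with both S and DK identifiers, so a difference between these 2 sets cannot be told apart from one between lines. Within the DK libraries *Rpl29* also differed, with means of 1466 TPM in the *Pcgf3/5* line, 582 in *Pcgf2/4*, 610 in *Pcgf6* and 475 in the point mutant line. Read length, 75 or 50 bases by the methods, is not given for each library. Differences between lines in these genes were therefore not read as differences between cells.

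**Figure D5:**
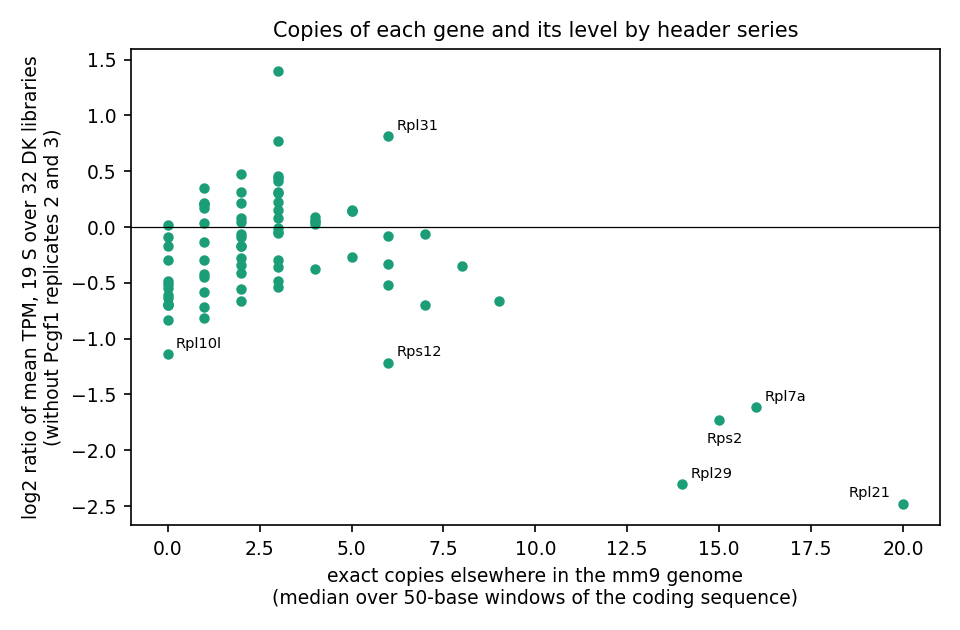
Log2 ratio of mean level (TPM + 0.1) between 19 libraries with S identifiers (*Pcgf1* replicates 2 and 3, which also have them, are left out) and the 32 with DK identifiers, against the median number of exact copies of a 50-base coding window elsewhere in the mm9 genome, for 80 members: 1 point is 1 gene. The 4 genes with a median of at least 10 copies, *Rpl21*, *Rpl29*, *Rps2* and *Rpl7a*, lie between -2.48 and -1.61, and the others between -1.22 and 1.40.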

How the data were processed

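RNA-seq was made from total RNA of 59 libraries. Reads of 75 or 50 bases from poly(A)-selected RNA were mapped by the authors to mm9 with STAR 2.5.2b and counted over exons. The deposited values are TPM for 24391 genes, and how counts became TPM is not given in the sources used here. TPM keeps no depth, so the depth of each library is unknown and no counting interval can be given.

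The 84 members and all gene lists were chosen with earlier results of these data known. Groups came from the sample labels. For the *Pcgf1* and point mutant lines, log2(TPM + 0.1) of genes above 0 in at least 1 library was fitted over 4 groups with limma 3.58.1 (R 4.3.3, empirical Bayes with trend), and p-values were adjusted over all genes by Benjamini-Hochberg, with a threshold of 0.05. Log2 differences on this scale understate changes of low genes. Deviations from group means were compared between libraries: in the *Pcgf1* line all 27 same-numbered pairs correlated (r = 0.32 to 0.65, 13400 genes), so the number was taken as a pairing, although pairs with other numbers reached r = 0.62. Numbers follow the titles: mutant EB replicate 4 is numbered 5 in another label. Genes named were the 5 highest and 5 lowest called members of each comparison with a mean of at least 1 TPM, the 5 highest and 5 lowest levels above 1 TPM, the stalk genes with *Rpsa*, the paralogues with their counterparts, and members with an isolated library. Other members named were chosen after their values were seen, and 3 members are counted but not reported here by name or drawn gene by gene. So were the comparison of library series, the transcript length classes, the minimum of 10 copies, the fits of replicate subsets and the blocked scalings.

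Copies were counted as windows of 50 bases of the coding sequence (GENCODE vM1 on NCBIM37, which is mm9) that occur letter for letter elsewhere in the genome, on either strand, in Python 3.11.15 with numpy 2.4.6 and numba 0.67.0. Promoter windows were from RefSeq on GRCm38.p6. Other alternatives were a pseudocount of 1, a minimum mean of 1 TPM, median-of-ratios scaling, quantile normalization, only the groups compared, the replicate block and leaving out each library in turn, and for the share, the mean over pairs and sums without mitochondrially encoded and histone genes or without the highest member. The fit with and without the block was tested on simulated data for control EBs against ESCs in both lines.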

Additional observations from a re-analysis of the deposited data

Results flagged for a closer look

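In groups of 4 or 5 libraries of the *Pcgf1* line, 340 sets of values were examined for 1 library far from the others, and 3 had one. Chance alone gives about 1 in 20. *Rpl26* was at 2.09 TPM in control ESC replicate 3 and listed at 0 in the other 3 libraries of that group. *Rpl30* was at 0.777 TPM in mutant ESC replicate 1, while the others lay between 9.66 and 12.7 TPM. *Rpl34* was at 2.48 TPM in mutant EB replicate 1, while the others lay between 22.8 and 26.99 TPM. Replicate 1 had the lowest level of *Rpl30* and of *Rpl34* in all 4 groups, and all 3 genes are among the members with low levels.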

How the results depend on the processing

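The replicate block, which pairs libraries of the same number in the *Pcgf1* line, moved the most counts. Without it 2 members were called higher in control EBs and 0 lower, and with it 12 and 2. Together with the block, median-of-ratios scaling gave 16 and 2, quantile normalization 6 and 10, a pseudocount of 1 gave 12 and 1, replicates 2 and 3 alone 6 and 2, replicates 1, 4 and 5 alone 2 and 0, and averaging the close replicates 4 and 5 gave 9 and 2. Fitting only the groups compared, without the block, left 1 higher. For mutant EBs against ESCs, 0 members were called without the block and 13 higher with it. Together with the block, median-of-ratios scaling gave 20 higher, quantile normalization 6, a pseudocount of 1 gave 15, replicates 2 and 3 alone 5, averaging replicates 4 and 5 gave 13, and replicates 1, 4 and 5 alone 1 higher and 1 lower. Median-of-ratios scaling with the block called 1 member higher in mutant than in control ESCs.

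Leaving out each library in turn without the block gave 1 to 2 members higher in control EBs and 0 for every other count. Leaving out each replicate number from the blocked fit gave 5 to 10 higher (5, 7, 5, 10 and 7 without replicates 1 to 5) and 1 to 3 lower in controls, 6 to 14 higher (6, 9, 7, 13 and 14) and 0 to 1 lower in mutants, and 0 to 1 lower in mutant against control EBs, 1 without replicate 1 or 3. The differences in share ranged from -0.35 to 3.13, -0.39 to 2.65, -1.33 to 2.14 and -1.44 to 1.66 percentage points in the *Pcgf1* line (EBs against ESCs in controls and mutants, mutants against controls in ESCs and EBs) and from 0.12 to 2.77, 0.22 to 2.26, -2.25 to 0.40 and -2.16 to -0.11 in the point mutant line.

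In the point mutant line the numbers were not taken as a pairing, since there are 2. A replicate block called 1 member lower in mutant ESCs (*Rpl39l*, -1.07) and 4 lower in mutant EBs (among them *Rpl39l*, *Rpl29* and *Rps7*). A minimum mean of 1 TPM and median-of-ratios scaling each called 2 lower in mutant EBs, where 0 were called otherwise.

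Without the block, leaving out mutant ESC replicate 2 or 3 took the members with a positive difference between mutant EBs and ESCs from 73 to 25 or 23. Of the 13 genes called there with the block, 4 changed sign in the unblocked fit when 1 library was left out: *Rps12* to -0.0044 without mutant ESC replicate 3, *Rps21* to -0.050 and -0.070 and *Rps29* to -0.010 and -0.082 without mutant ESC replicate 2 or 3, and *Rps27a* to -0.038 without mutant EB replicate 1 and to -0.036 without mutant ESC replicate 2 or 3. Their values without each library ran up to 0.63 for *Rps12*, 0.50 for *Rps21*, 0.49 for *Rps27a* and 0.55 for *Rps29*. The cause was not tested. In the other settings tried without the block, a pseudocount of 1 and quantile normalization among them, counts of calls moved by less than 1.5 times. For differences in share, other sums, means over pairs and left-out libraries were tried. These moved them by less than the larger SD of the 2 groups. In controls of the *Pcgf1* line that SD was 5.32 points beside a difference of 1.36 between EBs and ESCs, so this sets no tight limit. TPM holds no depth, so how far depth limits these values is unknown.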
